A study of Homo sapiens with 40 samples.

Results

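Wild-type (WT) MDA-MB-231 cells, a triple-negative breast cancer (TNBC) line, were compared with TGFβ-stimulated MII-spheres to see which mesenchymal and invasive traits of the TNBC line were and were not reached by HRAS-transformed breast epithelial cells after TGFβ. The members were the 6 RNA-seq libraries labelled MDA-MB-231-WT 1 to 3 and MII-TGFb 1 to 3, out of 40 libraries in the series, of which 24 were RNA-seq and 16 were ATAC-seq. All 6 carried the same sequencing batch label. MDA-MB-231 WT cells were labelled genotype WT and untreated, and were grown as a monolayer in DMEM with 10% fetal bovine serum. They are a metastatic line. MII cells (MCF-10AneoT, labelled MCF-10A-HRAS, genotype WT) are MCF-10A mammary epithelial cells transformed with oncogenic HRAS. They were grown as spheres in ultra-low attachment plates and received TGFβ1 at 2.5 ng/ml for 16 h. The 3 untreated MII-sphere libraries of the same batch served as the background. Line, genetic background, culture form, medium, serum and TGFβ all differ between the compared groups and cannot be told apart here. Each group was 1 cell line, and the labels call the 3 libraries of a group biological replicates without naming separate cultures, so p-values measure the spread between these libraries.

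Epithelial-to-mesenchymal transition (EMT) is the change in which epithelial cells loosen their junctions, replace keratins by vimentin and gain motility. TGFβ acts through SMAD proteins and a small set of transcription factors (SNAIL, SLUG, ZEB1, ZEB2, TWIST) that bind E-boxes in the promoters of epithelial genes. The microRNAs of the miR-200 family and miR-205 hold the epithelial state by pairing with the 3′ UTRs of ZEB1 and ZEB2, and ZEB1 in turn represses the gene that carries miR-200c and miR-141. Cells may pass only part of the way along this axis, keeping E-cadherin while they gain matrix and protease genes.

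The mature microRNAs miR-200c, miR-141 and miR-205 are shown first because the transcripts that carry them were among the genes that separated the lines. Sequences come from RefSeq (GRCh38.p14), 5′ to 3′, and the capitals mark the seed (bases 2 to 8).
hsa-miR-200c-3p, chr12:6963742-6963764, + strand: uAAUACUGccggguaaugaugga
hsa-miR-141-3p, chr12:6964155-6964176, + strand: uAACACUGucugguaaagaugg
hsa-miR-205-5p, chr1:209432166-209432187, + strand: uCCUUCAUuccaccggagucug
The seeds of miR-200c and miR-141 differ at 1 base. The site that pairs with the miR-200c seed, CAGTATT, stood 6 times in the 2540 bases of the ZEB1 3′ UTR and 5 times in the 5370 bases of that of ZEB2, and at least once in 16.1% of 19550 3′ UTRs. The miR-141 site, CAGTGTT, stood 3 times in ZEB1 and 4 times in ZEB2, against 18.2% of 3′ UTRs with one or more. The miR-205 site, ATGAAGG, stood 1 time in ZEB1 and was not found in ZEB2, against 11.6%. A match is a description of letters and not evidence of pairing. The first and the fifth ZEB1 sites, with the letters that pair with the seed in capitals, read (GRCh38, transcribed strand):
ZEB1 site 1, chr10:31527620-31527642, + strand: tgttttatcttatCAGTATTatc
ZEB1 site 5, chr10:31528564-31528586, + strand: tcttcaaacctggCAGTATTaat

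The promoters of 2 junction and polarity genes and of the miR-200c host gene are shown as examples that hold E-boxes. These genes were low in MDA-MB-231, where ZEB1 was high, but ZEB1 binding was not measured and a role of ZEB1 was not tested. Each runs from 250 bases before to 50 after the gene's start (RefSeq, GRCh38.p14), and capitals mark the E-box CACCTG or its reverse complement CAGGTG.
CRB3 promoter, chr19:6464021-6464320, + strand: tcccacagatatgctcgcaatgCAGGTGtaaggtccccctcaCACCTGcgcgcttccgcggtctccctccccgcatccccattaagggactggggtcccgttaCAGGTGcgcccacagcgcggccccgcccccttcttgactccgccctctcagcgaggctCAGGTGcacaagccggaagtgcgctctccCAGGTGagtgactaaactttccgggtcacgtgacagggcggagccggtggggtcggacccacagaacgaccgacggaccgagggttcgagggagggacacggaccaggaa
CLDN7 promoter, chr17:7262429-7262728, - strand: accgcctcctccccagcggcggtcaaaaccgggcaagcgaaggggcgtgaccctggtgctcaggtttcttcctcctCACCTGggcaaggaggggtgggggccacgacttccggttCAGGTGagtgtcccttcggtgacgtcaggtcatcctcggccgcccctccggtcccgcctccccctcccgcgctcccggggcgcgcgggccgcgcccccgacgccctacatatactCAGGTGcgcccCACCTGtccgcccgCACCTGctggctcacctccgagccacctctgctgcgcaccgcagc
MIR200CHG promoter, chr12:6962995-6963294, + strand: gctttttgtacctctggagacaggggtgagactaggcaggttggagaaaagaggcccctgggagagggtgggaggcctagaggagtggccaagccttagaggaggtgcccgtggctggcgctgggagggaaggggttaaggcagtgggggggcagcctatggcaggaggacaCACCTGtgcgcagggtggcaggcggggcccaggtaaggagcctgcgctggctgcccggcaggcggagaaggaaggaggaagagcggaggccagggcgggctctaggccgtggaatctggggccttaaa
CRB3 and CLDN7 each held 5 such E-boxes and MIR200CHG held 1. The table listed 2 starts for CLDN7, and a start with the most E-boxes is shown. Of the 91 genes on the epithelial lists used below, 55 had a promoter in the table. Of these, 28 (50.9%) held an E-box, against 6571 of 27305 genes with a promoter (24.1%). Among members lower in MDA-MB-231 the share was 21 of 41 (51.2%), and among members higher it was 3 of 5. Here and for the TEAD motif below, a gene counted if any of its starts held the motif. The lists are of epithelial genes chosen by hand, so an excess of E-boxes may follow from that choice and is not support.

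Counts assigned to genes came to 22533912 to 23933524 per MDA-MB-231 WT library, 15370453 to 15587660 per TGFβ-treated and 14124688 to 27759376 per control MII library. Levels are given as CPM, the counts of a gene scaled to a common library size, in the order of replicates 1, 2 and 3. CPM does not correct for gene length and is compared between libraries only, not between genes. A gene was called higher or lower in MDA-MB-231 WT when its log2 fold-change (log2FC) passed 1 in size with an adjusted p under 0.05 (edgeR quasi-likelihood test, Benjamini-Hochberg over all genes tested). It was called within 2-fold when the 95% interval of the log2FC lay between -1 and 1, and otherwise it was not resolved. Errors of log2FC are standard errors with n = 3 libraries per group. The line labels held in most of their defining genes. VIM, ZEB1, AXL and CD44 were high and CDH1, EPCAM, ESR1 and PGR low in MDA-MB-231. MII-spheres held CDH1, CDH3, KRT17, ITGB4 and LAMB3, but LAMB3 was within 2-fold and ITGB4 not resolved between the lines. Other chosen markers did not hold: SPARC was near nil in MDA-MB-231 too, and the basal factor TP63 was low in both groups. Of 12 markers of other cell types, 10 were too low to test. PECAM1, an adhesion protein of endothelium, was lower and GFAP, a glial filament, higher in MDA-MB-231, while PTPRC, CD3E, CD68, ALB and HBB stayed under 0.5 CPM in every library of both groups. 

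Libraries differed in ways that touched the results. WT replicate 2 stood apart from the other WT libraries, with a Pearson r of 0.957 and 0.953 to them over log2 CPM of genes against 0.996 between those 2. It held 2.4% mitochondrial counts against 0.812% and 0.656%, and 2.54% ribosomal-protein counts against 3.93% and 4.65%. TGFβ-treated MII replicate 3 held more counts of genes that MDA-MB-231 expressed and MII-spheres did not. For 23 such genes, chosen after their values were seen, summed CPM was 4.16, 7.10 and 25.1 in the 3 libraries, or 0.111%, 0.189% and 0.67% of the WT mean. The part of either library in the results was not tested, and values without it are given where they moved a call or a called value by over 1.5 times.

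MDA-MB-231 WT and TGFβ-treated MII-spheres differed across the transcriptome. Of 17587 genes tested, 4231 (24.1%) were higher and 3653 (20.8%) lower in MDA-MB-231, 3419 (19.4%) were within 2-fold, and 6284 were not resolved. The groups did not overlap for 4210 of the higher and 3649 of the lower genes. Protein-coding genes made up 3045 of the higher and 2845 of the lower set. Without WT replicate 2, 4135 genes (23.5%) were higher and 4112 (23.4%) lower of 17564 tested, and 6489 (36.9%) were within 2-fold. The count of genes shown to be alike thus moved most. It also moved when 1 treated MII library was left out, to 2020, 1988 and 2046 without replicates 1, 2 and 3. Against the untreated MII-spheres, 4359 of 19422 genes (22.4%) were higher and 4559 (23.5%) lower in MDA-MB-231. TGFβ itself raised 511 (3.12%) and lowered 1230 (7.5%) of 16396 genes in MII-spheres. Genes near nil in WT passed the count filter through the spheres alone and had to differ, so counts of lower epithelial genes below describe the lists and are not support. The same holds for higher genes that were near nil in the spheres and passed through WT alone. Under a minimum of 10 counts in each library, 6 keratins in place of 15, 9 epithelial transcription factors in place of 18 and 1 of the splicing and microRNA host genes in place of 5 were lower. These comparisons share libraries, so their values are set side by side only. The library normalization moved the median log2FC of all genes, 0.10, by 0.19 when library totals alone were used.

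The transcription factors of EMT split in opposite directions. Of 14 tested of 17 on the list, 5 were higher in MDA-MB-231 (35.7%, against 24.1% of all genes) and 8 lower (57.1%, against 20.8%). None was within 2-fold and SOX9 was not resolved (-0.43 ± 0.46, but -1.24 and lower without WT replicate 2). The median log2FC of the list was -2.28. Several of the lower factors were near nil in WT, and under a minimum of 10 counts in each library 4 were lower and the median was 0.99. The zinc-finger repressors ZEB1, ZEB2 and SLUG (SNAI2) and the chromatin protein HMGA2 stood far higher in MDA-MB-231, while SNAIL (SNAI1), TWIST1, TWIST2 and SOX4 were higher in the spheres. ZEB1 was at 111.7, 68.5 and 106.95 CPM in the WT libraries, 3.57, 2.8 and 2.92 in the TGFβ-treated and 2.42, 3.01 and 2.69 in the control MII-spheres. The groups were far apart and TGFβ left ZEB1 where it was in the spheres (log2FC for TGFβ 0.15 ± 0.21, within 2-fold). The difference between the lines was 4.89 ± 0.28 on the log2 scale, or 29.7-fold (adjusted p 1.41e-05). SLUG was at 30.6, 21.3 and 33.9 CPM in WT against 1.59, 1.82 and 2.59 with and 1.7, 1.32 and 1.54 without TGFβ, a log2FC of 3.77 ± 0.30 (adjusted p 6.44e-05). ZEB2 (3.38), HMGA2 (3.22) and the forkhead factor FOXQ1 (2.28, and 1.70 without WT replicate 2) were also higher. SNAIL, the EMT factor that TGFβ induces early in many cells, was at 22.9, 20.4 and 16.1 CPM in control spheres, 3.96, 3.26 and 3.19 after 16 h of TGFβ and 0.722, 1.95 and 0.932 in MDA-MB-231. It thus fell with TGFβ (log2FC -2.53 ± 0.13) and was lower again in the TNBC line (-1.59 ± 0.40, adjusted p 0.013). The line difference took the opposite sign with control siRNA MDA-MB-231 libraries in place of WT. The study reports SNAIL among the genes upregulated by TGFβ in RT-qPCR of MII-spheres, and the cause of this difference was not tested. TWIST1 stood at 0.076, 0.0847 and 0.0811 CPM in WT and 6.47, 5.21 and 5.38 in the spheres (-6.09 ± 0.32). TWIST2 had no count in any WT library and 2.91, 3.39 and 1.79 CPM in the spheres, which made it at least 67.2-fold lower, with the floor at 3 counts over a group. Floors and counting intervals cover counting error only. SOX4, which the study describes as raised by TGFβ, was at 40.5, 44.7 and 36.2 CPM in WT and 384, 379 and 389 in the treated spheres (-3.31 ± 0.17). Of 14 EMT factors tested for the TGFβ effect in the spheres, SOX4 among them, 0 were called higher (against 3.12% of all genes). Another 2 were lower (14.3%, against 7.5%) and 11 within 2-fold. The rise of SOX4 that the study describes was thus not called in these libraries. TCF4, an E-box binding factor, was at 0.228, 0.169 and 0.203 against 65.2, 65.6 and 61.9 CPM (-8.33 ± 0.23).

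The factors that hold the epithelial state were nearly all lower in MDA-MB-231. Of 19 tested of 20, 18 were lower, none was within 2-fold and SPDEF alone was higher (median log2FC -3.34). GRHL2, a grainyhead factor that maintains E-cadherin and opposes ZEB1, was at 0.114, 0.0423 and 0.0811 CPM in WT and 141, 145 and 139 in the spheres. All MII libraries lay in a narrow band and the WT libraries were close to nil. The log2FC was -10.73 ± 0.30 (adjusted p 2.28e-06). FOXA1, a luminal pioneer factor (-10.18), ELF3 (-6.95) and GRHL1 (-6.65) followed. The ZEB1-repressing factors OVOL1 and OVOL2 had 1 and 2 counts in all WT libraries together, which gave ratios of 873-fold (95% counting interval 156 to 34600) for OVOL1 and 498-fold (95% counting interval 137 to 4120) for OVOL2. EHF, an ETS factor of glandular epithelium, was lower but still present in MDA-MB-231, at 197, 105.5 and 202 against 899, 906 and 858 CPM (-2.46 ± 0.28). TP63, the basal master regulator, was low in both, at 1.03, 1.02 and 1.22 and 2.77, 2.34 and 2.66 CPM (-1.31 ± 0.26), and TGFβ had raised it in the spheres from 0.721, 0.463 and 0.659. SPDEF, a secretory epithelial factor, was at 15.8, 39.1 and 18.6 and 8.32, 11.2 and 9.57 CPM (1.28 ± 0.37), and its call was lost when WT replicate 2 (0.76) or any 1 treated MII library was left out.

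Splicing and microRNA host genes were mostly lower in MDA-MB-231. Of 8 tested of 9, 5 were lower, 1 was higher, 1 was within 2-fold and QKI was not resolved. ESRP1, the splicing regulator of epithelial isoforms of CD44 and FGFR2, had 2 counts in the WT libraries together against 189, 196 and 189 CPM, a ratio of 7150-fold (95% counting interval 1980 to 59000). MIR200CHG, which carries miR-200c and miR-141, was at 0.152, 0 and 0 CPM in WT, 7.53, 6.97 and 6.58 in TGFβ-treated and 14, 12.4 and 11.4 in control spheres. Every MII library lay above every WT library (log2FC -6.94 ± 0.71, and -10.06 without WT replicate 1). Its promoter above holds the single E-box. MIR205HG, the host of miR-205, had no WT count and 38.2, 35.5 and 37.3 CPM in the spheres, at least 920.0-fold lower. MIR31HG had none either (14.2, 13.8 and 13 CPM in the spheres, at least 340.0-fold). MIR100HG, which carries miR-100 and let-7a-2, went the other way, at 138, 79.3 and 123 CPM in WT, 4.56, 4.1 and 4.79 after TGFβ and 2.29, 1.99 and 1.98 before it. TGFβ raised it in the spheres (log2FC 1.10 ± 0.20) to a level still far under that of the TNBC line (4.60 ± 0.28). These are host transcripts, and mature microRNAs were not measured. RBFOX2, a splicing factor of the mesenchymal programme, was within 2-fold (0.51 ± 0.15).

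**Figure D1:**
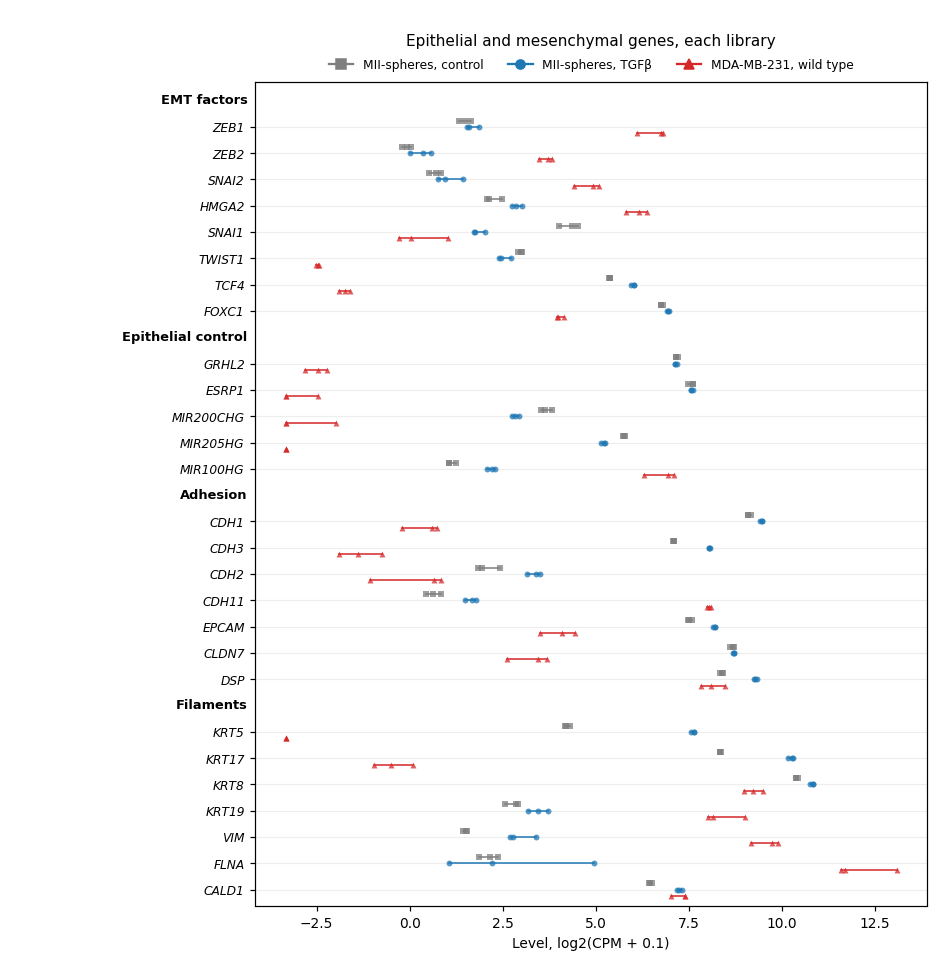
Level of epithelial and mesenchymal genes in each library, as log2(CPM + 0.1) on the x axis, with squares for control MII-spheres, circles for TGFβ-treated MII-spheres, triangles for MDA-MB-231 WT and a line over the range of each group. ZEB1 and CDH11 lie far to the right in MDA-MB-231 and GRHL2, CDH1 and KRT5 far to the left, with both MII groups close together for ZEB1, GRHL2 and CALD1.

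Cadherins differed, but not as a switch from E- to N-cadherin. Of 10 tested of 12 cadherin and catenin genes, 6 were lower (60%, against 20.8% of all genes) and 2 higher (20%, against 24.1%). None was within 2-fold and 2 were not resolved. E-cadherin (CDH1) was at 1.56, 0.762 and 1.42 CPM in WT, 709, 709 and 681 in TGFβ-treated and 582, 549 and 548 in control spheres. The WT libraries were close to nil and TGFβ did not lower CDH1 in the spheres (log2FC 0.30 ± 0.03, within 2-fold). The line difference was -9.18 ± 0.35 (adjusted p 4.37e-06). P-cadherin (CDH3) followed, at 0.494, 0.169 and 0.284 against 264, 267 and 266 CPM (-9.73 ± 0.37). N-cadherin (CDH2), the textbook mesenchymal cadherin, was lower in MDA-MB-231, at 1.48, 0.381 and 1.7 CPM against 10.4, 11.1 and 8.77 in the spheres (-3.13 ± 0.49), where TGFβ had raised it from 3.47, 5.26 and 3.73 (1.21 ± 0.15). Cadherin-11 (CDH11), which marks mesenchymal cells and bone-seeking tumours, was at 263, 254 and 274 CPM in WT, 3.37, 3.13 and 2.73 after TGFβ and 1.44, 1.69 and 1.26 before it. Its line difference of 6.36 ± 0.20 had the smallest adjusted p of all higher genes (2.53e-06). CDH4, or R-cadherin, was the other cadherin higher in WT (6.90 ± 0.68, 6.20 without WT replicate 2). The catenin JUP, or plakoglobin, was lower (-2.43 ± 0.49, -3.27 without WT replicate 2), as was CTNNA1 (-1.33 ± 0.17).

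Junction genes were lower in all but a few cases. Of 10 desmosomal genes tested of 11, 8 were lower, 1 was within 2-fold and EVPL was not resolved (-0.08 ± 0.57, but -1.18 and lower without WT replicate 2). Of 19 tight junction and polarity genes tested of 20, 13 were lower, 2 higher and 3 within 2-fold. Of 19 epithelial surface proteins, 15 were lower, 1 higher and 2 within 2-fold. The desmosomal cadherins DSC3 and DSG3 had no count in any WT library, against 80.6, 84.3 and 79.4 and 195, 192 and 179 CPM in the spheres, at least 2030-fold and at least 4690-fold lower. DSG3 had been raised by TGFβ in the spheres (1.69 ± 0.05). Desmoplakin (DSP), the plaque protein that anchors keratins, remained at 271, 355 and 228 CPM in MDA-MB-231 against 617, 639 and 608 (-1.19 ± 0.20). The plaque protein PKP2 was within 2-fold, at 48.9, 53.1 and 51.7 and 35.1, 35.8 and 35.2 CPM (0.48 ± 0.15). Among tight junction genes, claudin-7 (CLDN7) was at 10.9, 6.01 and 12.8 against 423, 422 and 415 CPM (-5.46 ± 0.33), and the apical polarity protein CRB3 at 0.038, 0.254 and 0.203 against 21.9, 20.5 and 19.5 (-6.995 ± 0.45). These are the genes whose promoters above hold 5 E-boxes each. CLDN8 had no WT count (at least 1130-fold lower), and claudin-1 (CLDN1) stood at -6.03 ± 0.18. The scaffolds TJP1 (0.39 ± 0.15) and PARD3 (-0.23 ± 0.15) were within 2-fold, and the polarity proteins PARD6B (2.08 ± 0.31) and PALS1 (1.13 ± 0.26, 0.99 without WT replicate 3, where its call was lost) were higher in the TNBC line. Among surface proteins, EPCAM was at 17.1, 11.1 and 21.5 against 293, 282 and 293 CPM (-4.18 ± 0.28) and CD24 at 12.2, 5.08 and 11.2 against 1648, 1661 and 1599 (-7.48 ± 0.42). The matriptase ST14 (-7.22), its inhibitor SPINT1 (-5.87), the trafficking GTPase RAB25 (-10.64, -10.04 without WT replicate 1 and -11.84 without WT replicate 2) and S100A14 (-10.97, -11.56 without WT replicate 2) were lower. CDCP1, a transmembrane protein linked to anchorage-free growth, was the only surface gene higher, at 419, 591 and 396 against 92.5, 97 and 106.2 CPM (2.19 ± 0.21).

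Keratins were lower in MDA-MB-231, and those that TGFβ moved in the spheres went up. Of 17 tested of 21, 15 were lower and 2 higher in MDA-MB-231, with a median log2FC of -7.76, or -7.46 with genes at 0 set to their floor. TGFβ raised 7 of 17 keratins in the spheres (41.2%, against 3.12% of all genes) and lowered none. The basal keratin KRT5 was at 18.2, 18 and 19.9 CPM in control spheres and 200.1, 189 and 199.8 after TGFβ, and had no count in MDA-MB-231, at least 4880-fold lower. KRT6B had none either, against 671, 653 and 714 CPM (at least 16900-fold). KRT17, a keratin of basal and wounded epithelium, was at 0.418, 0.974 and 0.608 CPM in WT, 1251, 1143 and 1241 after TGFβ and 328, 324 and 326 before it. TGFβ had raised it by 1.88 ± 0.04 on the log2 scale, and the line difference was -10.88 ± 0.38. KRT15 stood at 5.43, 6.9 and 4.54 against 3947, 3826 and 4018 CPM (-9.51 ± 0.29). The simple-epithelium keratins were closer, with KRT8 at 508, 720.3 and 602 against 1815, 1722 and 1833 CPM (-1.61 ± 0.19) and KRT18 at 421, 506 and 476 against 929.5, 875 and 903 (-1.01 ± 0.16, -0.91 without WT replicate 1, where its call was lost). KRT19 was the keratin clearly higher in MDA-MB-231, at 257, 516 and 282 against 10.8, 8.92 and 13.2 CPM (4.95 ± 0.36, adjusted p 4.20e-05). KRT80 was the other (1.50 ± 0.40), and its call was lost when WT replicate 2 (0.86) or any 1 treated MII library was left out.

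Mesenchymal filament and contractile genes were mostly higher in MDA-MB-231. Of 17 tested of 19, 11 were higher (64.7%, against 24.1% of all genes), 1 was lower, 3 were within 2-fold and 2 were not resolved (median log2FC 1.73). Without WT replicate 2 these counts were 10, 2, 4 and 1. Vimentin (VIM), the mesenchymal intermediate filament, was at 853, 580.5 and 948 CPM in WT, 6.41, 6.71 and 10.4 after TGFβ and 2.82, 2.75 and 2.58 before it. Every WT library lay above every MII library, and TGFβ-treated replicate 3, the library with more MDA-MB-231-type counts, was the highest of its group. The line difference was 6.60 ± 0.35 (adjusted p 1.14e-05), and the TGFβ effect in the spheres was 1.51 ± 0.18, or 1.26 without that library. The actin cross-linker FLNA was at 3061, 8673 and 3321 CPM in WT and 1.98, 4.56 and 30.8 in the treated spheres (8.58 ± 1.29, 7.94 without WT replicate 2 and 10.49 without MII TGFβ replicate 3). Its TGFβ effect of 1.46 ± 0.36 rested on replicate 3 and was -0.45 without it. FLNC (9.23, 8.49 without WT replicate 2 and 10.70 without MII TGFβ replicate 3), the myosin light chain MYL9 (8.08, 7.47 without MII TGFβ replicate 1 and 9.35 without MII TGFβ replicate 3), the myosin kinase MYLK (5.16 ± 0.33) and nestin (NES, 5.22 ± 0.26) were higher. Calponin-3 (CNN3) was at 456, 320.5 and 553 against 102.2, 100.7 and 110.8 CPM (2.02 ± 0.23). CALD1, TPM4 and CNN2 were within 2-fold (-0.02 ± 0.17, 0.22 ± 0.21 and 0.40 ± 0.24). CALD1, the actin-binding protein caldesmon, had a TGFβ effect of 0.76 ± 0.04, which did not pass the threshold. Tropomyosin TPM1, a TGFβ target, was lower in MDA-MB-231, at 62.5, 46.1 and 67.9 against 139.9, 153 and 155 CPM (-1.40 ± 0.20). Smooth muscle actin (ACTA2) was low in both, at 3.19, 4.19 and 3 and 2.31, 2.54 and 2.46 CPM, and not resolved (95% interval -0.14 to 1.03).

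Basement membrane contact genes differed about as often as genes at large. Of 11 epithelial laminin and hemidesmosome genes, 3 were higher (27.3%, against 24.1% of all genes) and 3 lower (27.3%, against 20.8%). Another 3 were within 2-fold (27.3%, against 19.4%) and 2 not resolved. Without WT replicate 2 the share within 2-fold was 27.3%, against 36.9% of all genes. TGFβ raised 3 of the 11 in the spheres (27.3%, against 3.12% of all genes). The epithelial laminin chains LAMA3 (132, 169 and 108.1 against 189.8, 188 and 186 CPM, -0.52 ± 0.20) and LAMB3 (416, 714 and 485 against 664, 635 and 688 CPM, -0.36 ± 0.23) were within 2-fold, as was their receptor chain ITGA6 (0.15 ± 0.24). TGFβ had raised LAMA3 in the spheres from 68.4, 70.2 and 73.6 CPM (1.39 ± 0.04). Collagen XVII (COL17A1, -1.52 ± 0.20) and kindlin-1 (FERMT1, -2.25 ± 0.16) were lower in MDA-MB-231. Plectin (PLEC) was higher (2.88 ± 0.73, 1.47 without WT replicate 2), as were DST (1.20 ± 0.17) and the anchoring fibril collagen COL7A1 (1.79 ± 0.47, with the call lost without WT replicate 2, 0.99, or without treated MII replicate 2 or 3). The hemidesmosomal integrin chain ITGB4 was not resolved (-0.36 ± 0.48), but was lower without WT replicate 2 (-1.22).

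Integrins differed by subunit about as often as genes at large. Of 15 tested of 17, 5 were higher (33.3%, against 24.1% of all genes), 4 lower (26.7%, against 20.8%), 2 within 2-fold (13.3%, against 19.4%) and 4 not resolved. The epithelial integrin chain ITGB6, which activates latent TGFβ, was at 0.114, 0.169 and 0.324 CPM in WT and 967, 927 and 931 in the spheres (-12.20 ± 0.38, adjusted p 2.53e-06). ITGB8, another TGFβ-activating chain, followed at 23.5, 12.9 and 19.2 against 488, 483 and 461 CPM (-4.74 ± 0.27). ITGB3 was lower as well (-2.87 ± 0.18). The fibronectin receptor chain ITGA5 was at 115, 188 and 120.97 CPM in WT, 35.1, 30.9 and 31.6 after TGFβ and 14.6, 15.3 and 15.4 before it. TGFβ raised it (1.09 ± 0.08) to a level that stayed under that of MDA-MB-231 (2.06 ± 0.23). ITGA3 (2.49 ± 0.36), ITGA1 (1.74 ± 0.28) and ITGA10 (4.54 ± 0.31) were higher. The collagen receptor chain ITGA2 and the vitronectin receptor chain ITGB5 were within 2-fold (-0.32 ± 0.22 and -0.44 ± 0.22).

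Collagen genes were more often higher than lower in MDA-MB-231. Of 16 tested of 17, 11 were higher (68.8%, against 24.1% of all genes), 4 lower (25%, against 20.8%) and none within 2-fold (median log2FC 2.21). Without WT replicate 2 it was 9 higher and 4 lower. Under a minimum of 10 counts in each library, which drops genes near nil in the spheres, 7 were higher and the median was 1.52. WT replicate 2 was the highest of its group for most of these genes. COL6A1 was at 114, 338 and 127 CPM in WT and 9.38, 6.19 and 7.44 in treated spheres (4.59 ± 0.50, 3.91 without WT replicate 2), and COL6A3 at 45.5, 72.6 and 36.6 against 1.52, 1.24 and 2.39 (4.84 ± 0.39). COL8A1, a short-chain collagen, was at 188, 206 and 189.9 against 1.32, 0.847 and 1.99 CPM (7.07 ± 0.34). COL5A1 (10.21, 9.001 without WT replicate 2 and 11.35 without MII TGFβ replicate 3), COL13A1 (9.14, 10.28 without MII TGFβ replicate 3), COL6A2 (8.62, 7.78 without WT replicate 2, 8.01 without MII TGFβ replicate 1 and 9.48 without MII TGFβ replicate 3) and COL1A2 (8.15, 7.55 without MII TGFβ replicate 1 and 10.18 without MII TGFβ replicate 3) were under 1 CPM in every MII library and their size moved with TGFβ-treated replicate 3. The basement membrane collagens COL4A1 and COL4A2 were the ones TGFβ raised. COL4A1 rose from 1.11, 1.82 and 1.7 CPM to 32.3, 33.9 and 34 in the spheres (4.35 ± 0.12, or 20.4-fold) and stood at 66.7, 136 and 65.1 in WT (1.36 ± 0.31). Without WT replicate 2 the line difference in COL4A1 was 0.92 and no longer called. COL4A2 rose from 4.26, 2.75 and 2.75 to 41.8, 44.4 and 46.5 CPM (3.80 ± 0.10), against 145, 357 and 142 in WT (2.22 ± 0.39, 1.63 without WT replicate 2). COL16A1 (-3.23 ± 0.43, -3.87 without WT replicate 2), COL5A2 (-3.35 ± 0.30) and COL4A5 (-1.71 ± 0.21) were higher in the spheres. COL1A1, which TGFβ lowered in the spheres (-1.33 ± 0.14), was at 2.89, 17.1 and 2.07 and 4.76, 3.65 and 3.39 CPM and not resolved between the lines.

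Collagen-modifying enzymes were more often higher than lower in MDA-MB-231. Of 15 genes, 8 were higher (53.3%, against 24.1% of all genes) and 1 was lower (6.67%, against 20.8%). Another 4 were within 2-fold (26.7%, against 19.4%) and 2 were not resolved. Without WT replicate 2 the share within 2-fold was 40%, against 36.9% of all genes. TGFβ raised 6 of 14 in the spheres (42.9%, against 3.12% of all genes) and lowered none. The lysyl oxidase LOXL2, which cross-links collagen, was at 136, 414 and 139.8 CPM in WT, 4.69, 5.53 and 4.52 after TGFβ and 1.18, 2.02 and 1.7 before it. TGFβ raised it (1.51 ± 0.21) but left it far under MDA-MB-231 (5.49 ± 0.54, 4.75 without WT replicate 2). LOXL4 (3.47 ± 0.23) and LOX (2.28 ± 0.27) were higher, as was the collagen chaperone SERPINH1 (2.07 ± 0.21). The lysyl hydroxylase PLOD1 rose with TGFβ from 81, 77.5 and 74.9 to 171, 160.4 and 162 CPM, which brought it within 2-fold of the TNBC line at 153, 265 and 169 (0.19 ± 0.23). The prolyl hydroxylase P4HA2 (0.12 ± 0.15) and the procollagen protease BMP1 (0.15 ± 0.26) were within 2-fold too. P4HA1 rose from 94.1, 89.7 and 90.3 to 269, 271 and 271 CPM and passed MDA-MB-231 at 154, 68.1 and 167 (-1.12 ± 0.33). Without WT replicate 2 the P4HA1 difference was -0.82 and within 2-fold, and its call was also lost when any 1 treated MII library was left out.

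Matrix glycoproteins went in both directions. Of 21 tested of 27, 10 were higher (47.6%, against 24.1% of all genes) and 7 lower (33.3%, against 20.8%). None was within 2-fold and 4 were not resolved (median log2FC of the list 0.29). Fibronectin (FN1), a hallmark of mesenchymal matrix, was at 725, 997 and 632 CPM in WT, 139, 152 and 137 after TGFβ and 136, 131.5 and 129.9 before it. TGFβ left it within 2-fold in the spheres (0.09 ± 0.04) and the line difference was 2.40 ± 0.22 (adjusted p 1.13e-04). Thrombospondin-1 (THBS1, 1.78 ± 0.21), fibrillin-1 (FBN1, 3.77 ± 0.19), EFEMP1 (2.35 ± 0.24) and the laminin chain LAMB1 (1.63 ± 0.15) were higher. The matricellular genes CCN1 and CCN2 were at 226, 762 and 208 and 127, 166 and 133 CPM in WT against 5.94, 4.88 and 7.71 and 6.01, 8.01 and 8.24 in the spheres (5.95 ± 0.64, 5.07 without WT replicate 2, and 4.20 ± 0.23). Tenascin-C (TNC), a glycoprotein of invasive and metastatic niches, rose in the spheres from 27.6, 33.7 and 27.2 CPM to 169, 166 and 168 (2.47 ± 0.06) and stood at 103.7, 184 and 99.5 in MDA-MB-231. The TNC groups overlapped and the line difference was not resolved (95% interval -1.05 to 0.17). MGP, an inhibitor of calcification, was at 0.038, 0.0847 and 0.122 CPM in WT and 3249, 3193 and 3097 in the spheres, the widest gap of the list (-15.22 ± 0.37). TGFBI (-1.69 ± 0.15), LAMA4 (-3.40 ± 0.24), the proteoglycan VCAN (-2.64 ± 0.43, -3.26 without WT replicate 3) and FBLN1 (-2.76 ± 0.28) were lower in MDA-MB-231. SPARC, POSTN, BGN and DCN, often used as mesenchymal markers, were under 1 CPM in every library of both groups.

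**Figure D2:**
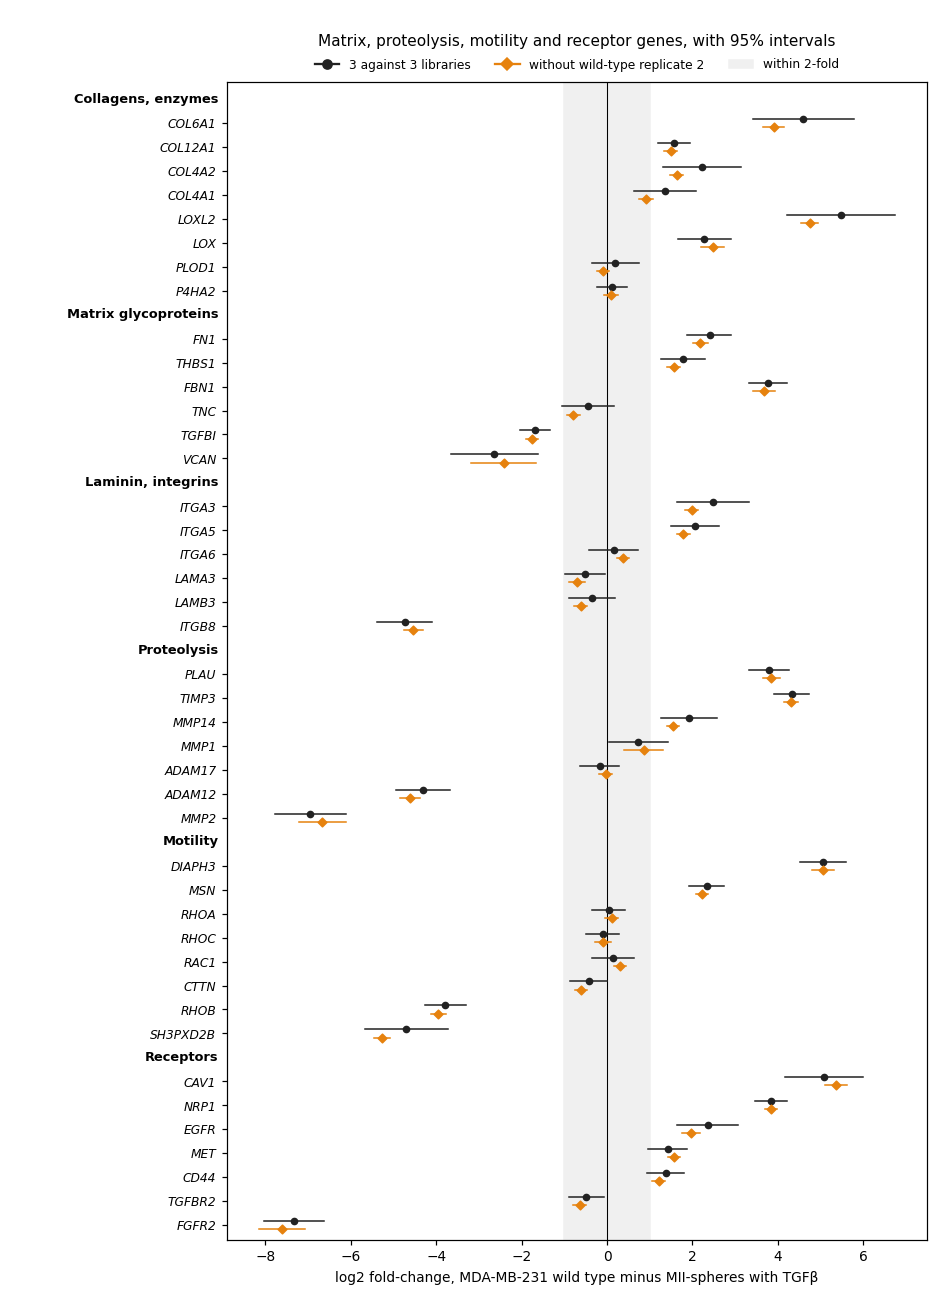
Log2 fold-change of MDA-MB-231 WT over TGFβ-treated MII-spheres (x axis) with its 95% interval for matrix, adhesion, protease, motility and receptor genes, with all libraries and without WT replicate 2, and a grey band over the 2-fold range. LOXL2, DIAPH3 and CAV1 lie far to the right and MMP2 and FGFR2 far to the left, while RHOA, RHOC and RAC1 lie inside the band.

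Proteases differed by member and not as a class. Of 26 matrix metalloproteinase (MMP), inhibitor and sheddase genes tested of 29, 10 were higher (38.5%, against 24.1% of all genes) and 10 lower (38.5%, against 20.8%). Another 3 were within 2-fold (11.5%, against 19.4%) and 3 not resolved (median log2FC of the list 0.09). TGFβ raised 5 of 23 in the spheres (21.7%, against 3.12% of all genes) and lowered none. The membrane protease MMP14, which drives pericellular collagen breakdown, was at 409.5, 802 and 458 CPM in WT, 144, 138 and 142 after TGFβ and 98.2, 102.6 and 101.9 before it (1.92 ± 0.28, adjusted p 0.00102). All WT libraries lay above all MII libraries. The secreted collagenase MMP13 was at 0.114, 0.0423 and 0.0811 CPM in WT and 68.8, 66.9 and 67.2 in treated spheres (-9.67 ± 0.30), where TGFβ had raised it from 31.6, 28.4 and 31.7. The gelatinase MMP2 was at 0.228, 0.0847 and 0.162 CPM in WT, 17.8, 18.6 and 22.7 after TGFβ and 4.85, 6.72 and 5.33 before it, so it too stood higher in the spheres (-6.95 ± 0.35). MMP10 rose from 0.393, 0.165 and 0.165 to 7.99, 8.4 and 7.38 CPM and had no WT count, at least 197-fold lower. MMP7 was lower as well (-8.89, -10.09 without WT replicate 2). MMP1, the collagenase of the MDA-MB-231 lung signature, rose in the spheres from 0.393, 0.199 and 0 to 2.91, 3.26 and 4.79 CPM (4.21 ± 0.39) and stood at 5.93, 5.12 and 7.94 in WT, which was not resolved from the treated spheres (95% interval 0.04 to 1.43). MMP9 stayed under 0.5 CPM in every library. The inhibitors TIMP1 (1.19 ± 0.17), TIMP2 (3.12 ± 0.28) and TIMP3 (4.33 ± 0.17) were all higher in MDA-MB-231. TIMP3 was at 672, 695 and 688 against 30.3, 34.8 and 33.2 CPM. The secreted protease ADAMTS12 (7.19 ± 0.66, 8.43 without MII TGFβ replicate 3) and ADAMTS1 (4.34 ± 0.25) were higher, ADAM12 was lower (-4.31 ± 0.27), and the sheddases ADAM17 (-0.18 ± 0.19) and ADAM19 (0.01 ± 0.30) were within 2-fold. TGFβ had raised ADAM19 from 26.3, 29.1 and 26.3 to 62.5, 65.4 and 63.9 CPM, to the 50.4, 101.04 and 49.6 of the TNBC line.

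Among plasminogen activation genes the activators were higher in MDA-MB-231 and the kallikreins lower. Of 13 tested of 15, 3 were higher (23.1%, against 24.1% of all genes), 6 lower (46.2%, against 20.8%) and none within 2-fold. All 6 lower genes were near nil in WT and passed the count filter through the spheres, and under a minimum of 10 counts in each library the lower count was 0 and the median log2FC 0.65 in place of -1.05. The urokinase PLAU was at 338, 319 and 389 CPM in WT, 21, 24 and 27.2 after TGFβ and 8.39, 11.5 and 9.39 before it. TGFβ raised it (1.25 ± 0.10) and the TNBC line was higher still (3.80 ± 0.20, adjusted p 1.08e-05). Tissue activator PLAT was higher (1.66 ± 0.17). The urokinase receptor PLAUR was at 56.3, 73.2 and 69.3 and 110.1, 110.4 and 120.7 CPM and not resolved (95% interval -1.24 to -0.44). The 6 lower genes were maspin (SERPINB5) and the kallikreins KLK5, KLK6, KLK7, KLK8 and KLK10. Maspin, a serpin of mammary epithelium that tumours lose, was at 0.266, 0.296 and 0.284 CPM in WT and 681, 667 and 642 in the spheres (-11.23 ± 0.23, adjusted p 2.28e-06). KLK5 had no WT count (at least 8410-fold lower), nor had KLK6 (at least 7700-fold), KLK7 (at least 3500-fold) and KLK8 (at least 484-fold). KLK10 had 7 counts over the WT libraries (-5.84 ± 0.66, -5.22 without WT replicate 1 and -6.99 without WT replicate 2).

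Many motility genes were alike in both lines. Of 27 invadopodia and motility genes, 7 were higher, 5 lower, 9 within 2-fold (33.3%, against 19.4% of all genes) and 6 not resolved. The share within 2-fold was 48.1% without WT replicate 2, against 36.9% of all genes. The GTPases RHOA, RHOC and RAC1 were among the 9. RHOA was at 537, 481 and 616 and 521, 505 and 504 CPM (0.04 ± 0.16), RHOC at 106.8, 120.5 and 138 and 126, 119.2 and 131.3 (-0.10 ± 0.16) and RAC1 at 256, 177 and 279.7 and 199, 217 and 207 (0.14 ± 0.21). The invadopodial scaffold cortactin (CTTN, -0.43 ± 0.18), the filopodial motor MYO10 (0.16 ± 0.31), focal adhesion kinase (PTK2, 0.43 ± 0.14) and ezrin (EZR, -0.55 ± 0.15) were within 2-fold as well. Moesin (MSN), the mesenchymal counterpart of ezrin, was at 680.2, 879 and 758 CPM in WT, 144, 148 and 150.3 after TGFβ and 52.6, 56.8 and 54.2 before it. TGFβ raised it (1.41 ± 0.05) and the line difference was 2.33 ± 0.17. The formin DIAPH3 rose from 0.393, 0.629 and 0.824 to 2.51, 3.91 and 3.12 CPM and stood at 110.5, 107.7 and 111.5 in WT (5.05 ± 0.23). WIPF1 (5.36 ± 0.39), paxillin (PXN, 3.03 ± 0.70, 1.72 without WT replicate 2) and the GTPase RAC2 (1.96 ± 0.26) were higher. The invadopodial scaffold SH3PXD2B was lower, at 5.81, 14.4 and 5.84 against 214, 219.6 and 214 CPM (-4.70 ± 0.41), as were the GTPase RHOB (-3.78 ± 0.20), the adaptor NCK1 (-1.998 ± 0.41) and ENAH (-1.47 ± 0.25).

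Receptors of invasive cells were mostly higher in MDA-MB-231. Of 28 tested of 30, 21 were higher (75.0%, against 24.1% of all genes), 4 lower, none within 2-fold and 3 not resolved (median log2FC 1.92). TGFβ raised 1 of 24 of these in the spheres, L1CAM (4.17%, against 3.12% of all genes). The receptor kinase AXL was at 1124, 2031 and 1259 CPM in WT, 2.25, 3.45 and 10.8 after TGFβ and 5.7, 4.43 and 5.22 before it. Every MII library was at a small fraction of the WT level (7.99 ± 0.74, 8.93 without MII TGFβ replicate 3). CAV1, which coats caveolae, was at 1048, 531 and 1230 against 22.9, 23.8 and 32.8 CPM (5.08 ± 0.39), the co-receptor NRP1 at 544, 555 and 562 against 36.1, 38.4 and 36.5 (3.85 ± 0.16) and the growth factor receptor FGFR1 at 104.3, 230.2 and 111.2 against 9.31, 6.9 and 6.91 (4.21 ± 0.38). CXCR4, the chemokine receptor of organ homing, was at 21.9, 12.9 and 28.9 CPM in WT with no count in any MII library, at least 324-fold higher. PDGFRB (6.14 ± 0.40), the ligand WNT5B (6.63 ± 0.34) and the adhesion molecule L1CAM were higher too. L1CAM was at 96.5, 307 and 87.3 CPM in WT, 1.85, 1.89 and 2.73 after TGFβ and 0.131, 0.596 and 0.494 before it (6.18 ± 0.63, 5.35 without WT replicate 2). The receptors that MII-spheres already held were less far apart: CD44 was at 536, 679.9 and 490.0 against 207, 219 and 208 CPM (1.37 ± 0.18), MET at 422, 298 and 440.4 against 138, 144 and 135 (1.42 ± 0.20) and EGFR at 331.7, 566 and 259 against 70.5, 74.7 and 71.3 (2.36 ± 0.30). The 4 lower members were ANPEP (-11.11, -10.49 without WT replicate 1 and -15.05 without WT replicate 2), FGFR2, the receptor of epithelial cells (-7.33 ± 0.30), endoglin (ENG, -1.35 ± 0.40, -1.28 without WT replicate 1 and -1.26 without MII TGFβ replicate 1, where its call was lost) and WNT5A, which had 2 counts in WT (488-fold (95% counting interval 135 to 4040)).

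Genes known for the organ metastasis of MDA-MB-231 derivatives were not a uniform set. Of 22 tested of 24, 6 were higher (27.3%, against 24.1% of all genes) and 8 lower (36.4%, against 20.8%). Of the rest, 1 was within 2-fold and 7 were not resolved (median log2FC of the list -0.63). CXCR4, interleukin-11 (IL11), VCAM1, CCN2, ADAMTS1 and HBEGF were higher in the TNBC line. IL11, an osteolytic cytokine, was at 17.3, 25.7 and 21.9 CPM in WT, 2.31, 2.54 and 2.46 after TGFβ and 0.917, 0.596 and 1.15 before it. TGFβ raised it (1.50 ± 0.29) but it stayed under the WT level (3.09 ± 0.23). VCAM1 was at 10.2, 5.17 and 8.11 against 0.0661, 0.0651 and 0.465 CPM (5.20 ± 0.65, 6.70 without MII TGFβ replicate 3). PTHLH, the TGFβ-induced driver of bone resorption, went the other way, at 0.57, 0.847 and 0.729 CPM in WT, 33.1, 29 and 28.4 after TGFβ and 7.08, 6.95 and 6.21 before it (-5.45 ± 0.24). ANGPTL4 (-3.24 ± 0.26), ID1 (-2.54 ± 0.25), KYNU (-6.61 ± 0.50), LY6E (-2.34 ± 0.27), PTGS2 (-3.32 ± 0.38) and CXCL1 (-2.37 ± 0.29) were lower in MDA-MB-231. Osteopontin (SPP1) had 3 counts in WT (51.9-fold (95% counting interval 17.2 to 256) lower). NEDD9 was within 2-fold (0.01 ± 0.14), and MMP1, TNC and EREG were not resolved.

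The direct TGFβ targets stood mostly lower in the MDA-MB-231 WT libraries than in the treated spheres. Of 21 tested of 23, 12 were lower (57.1%, against 20.8% of all genes), 3 higher (14.3%, against 24.1%) and 3 within 2-fold (median log2FC -1.37). With control siRNA MDA-MB-231 libraries in place of WT, 8 were lower and the median was -0.25. The higher ones included CCN2 and the ubiquitin ligase SMURF2 (491, 308 and 519 against 44.5, 52.4 and 54.9 CPM, 3.06 ± 0.26). The inhibitory SMAD7, a direct feedback target, was at 11.1, 13.2 and 10.7 CPM in WT, 9.25, 8.2 and 8.97 after TGFβ and 8.78, 9.4 and 10.6 before it. It was within 2-fold in both comparisons (line 0.35 ± 0.19, TGFβ -0.14 ± 0.12). The study reports SMAD7 as upregulated by TGFβ in RT-qPCR of MII-spheres, and the cause of this difference was not tested. PMEPA1, another feedback inhibitor, was at 62.9, 94.9 and 67.6 against 429, 422 and 403 CPM (-2.53 ± 0.21), with 339, 357 and 349.6 before TGFβ. SKIL (-2.15 ± 0.25), TGIF1 (-1.52 ± 0.19), JUNB (-2.71 ± 0.30), ID2 (-6.23 ± 0.20) and ID3 (-1.84 ± 0.33) were lower. At 16 h TGFβ had raised 2 of the 21 targets in the spheres (9.52%, against 3.12% of all genes), PTHLH among them, and lowered none.

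Ligands, receptors and SMADs of the pathway were more often lower than higher in MDA-MB-231. Of 29 tested of 31, 5 were higher (17.2%, against 24.1% of all genes), 14 lower (48.3%, against 20.8%), 3 within 2-fold and 7 not resolved, and without WT replicate 2 the count within 2-fold was 8. TGFB1 was at 20.1, 110.7 and 20.3 CPM in WT and 3.83, 4.36 and 3.92 in the spheres (3.58 ± 0.74, 2.26 without WT replicate 2). The type I receptor TGFBR1 was higher (1.20 ± 0.24) and the type II receptor TGFBR2 within 2-fold, at 137, 175 and 128 and 192, 199.6 and 197 CPM (-0.48 ± 0.18). The betaglycan gene TGFBR3 was at 49.8, 40.1 and 50.5 against 1.19, 1.56 and 1.66 CPM (4.93 ± 0.24). BMP4 was higher (7.02 ± 0.66, 7.90 without MII TGFβ replicate 3). Inhibin βA (INHBA, -5.45 ± 0.22), GDF15 (-6.71 ± 0.36), BMPR1B (-4.42 ± 0.19) and SMAD1 (-2.72 ± 0.25) were lower. SMAD2, SMAD3, SMAD4 and SMAD5 were not resolved, with log2FC of -0.72, 0.79, -0.41 and -0.55.

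**Figure D3:**
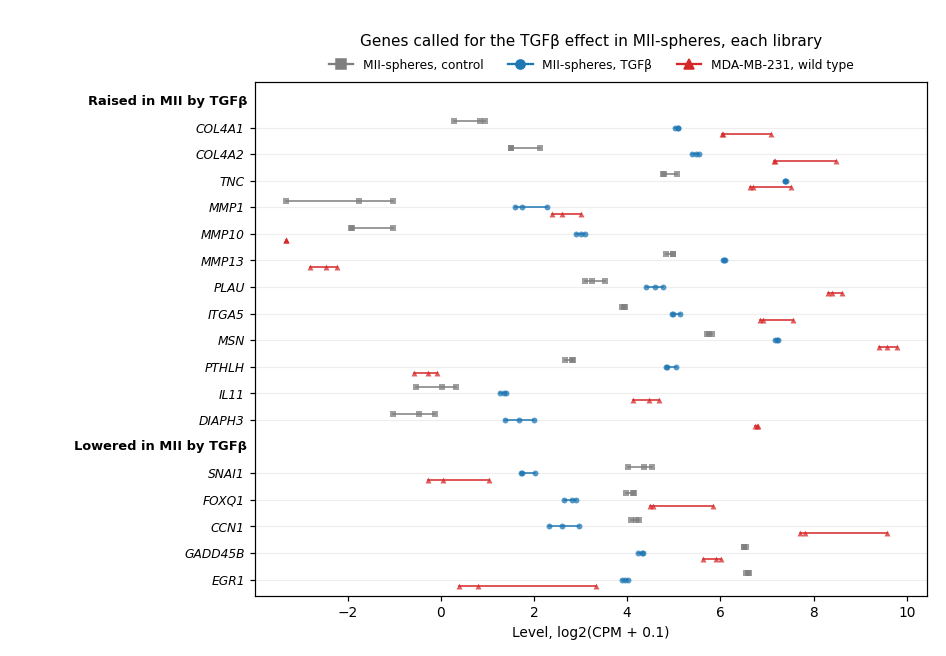
Level of genes called for the TGFβ effect in MII-spheres, as log2(CPM + 0.1) on the x axis, with squares for control spheres, circles for TGFβ-treated spheres, triangles for MDA-MB-231 WT and a line over the range of each group. TNC circles lie among the triangles, MMP1 and COL4A1 circles come close to them, PLAU, MSN and DIAPH3 circles stay well to the left, and PTHLH, MMP10 and MMP13 circles lie to the right of them.

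RAS pathway genes differed about as often as genes at large. Of 23 RAS and ERK output genes, 6 were higher (26.1%, against 24.1% of all genes), 5 lower (21.7%, against 20.8%), 5 within 2-fold (21.7%, against 19.4%) and 7 not resolved, and without WT replicate 2 these counts were 8, 6, 8 and 1. The count of higher genes was 10 with library totals alone and 12 with control siRNA libraries in place of WT. HRAS, the transforming gene of MII cells, was at 56.8, 100.99 and 70.1 CPM in WT, 189, 186 and 195 after TGFβ and 213, 220.4 and 220.1 before it (-1.38 ± 0.23, adjusted p 0.00208). All MII libraries were above all WT libraries, and counts at the gene do not separate the introduced copy from the cell's own. BRAF was within 2-fold (-0.27 ± 0.17). Of the ERK output genes, the phosphatase DUSP5 (3.02 ± 0.23), SPRY4 (2.27 ± 0.31), ETV5 (1.75 ± 0.19) and cyclin D1 (CCND1, 1.73 ± 0.20) were higher. FOSL1, the AP-1 subunit of invasive breast lines, was at 59.2, 386 and 66.8 against 4.29, 3.65 and 6.25 CPM (5.11 ± 0.86, 3.67 without WT replicate 2). DUSP4 (-1.94 ± 0.17), EPHA4 (-2.77 ± 0.17) and PHLDA1 (-1.24 ± 0.16) were lower.

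Targets of YAP and TEAD, which respond to spreading, stiffness and cell contact, were higher as a group. Of 26 genes, 18 were higher (69.2%, against 24.1% of all genes), 1 lower, 1 within 2-fold and 6 not resolved (median log2FC 1.93). TGFβ raised none of 24 in the spheres (against 3.12% of all genes) and lowered 2 (8.33%, against 7.5%). These 2 were CCN1 (-1.55 ± 0.12) and GADD45B (-2.25 ± 0.06). ANKRD1 was at 298, 145 and 339 CPM in WT and 0.132, 0.195 and 2.66 in treated spheres (7.96 ± 1.04, 10.51 without MII TGFβ replicate 3). AJUBA was at 231, 354 and 257 against 21.9, 19.5 and 22.2 CPM (3.67 ± 0.23), the phosphatase PTPN14 at 452, 693 and 354 against 53.5, 59.4 and 53 (3.12 ± 0.28) and CRIM1 at 476, 501 and 487 in WT (2.10 ± 0.15). The cofactor WWTR1 (TAZ) was within 2-fold, at 92.8, 86.1 and 87.5 and 87, 96.2 and 88.1 CPM (-0.08 ± 0.15), and YAP1 was not resolved (0.92 ± 0.16). The transcription factor TEAD1 was higher (1.64 ± 0.16). IGFBP3 was the 1 lower member, at 40.9, 43.9 and 50.6 against 2406, 2407 and 2391 CPM (-5.79 ± 0.20). Culture as monolayer or sphere differed between the groups together with the line.
The promoters of CCN2 and ANKRD1 are shown with the TEAD motif GGAATG or its reverse complement CATTCC in capitals (RefSeq, GRCh38.p14).
CCN2 promoter, chr6:131951323-131951622, - strand: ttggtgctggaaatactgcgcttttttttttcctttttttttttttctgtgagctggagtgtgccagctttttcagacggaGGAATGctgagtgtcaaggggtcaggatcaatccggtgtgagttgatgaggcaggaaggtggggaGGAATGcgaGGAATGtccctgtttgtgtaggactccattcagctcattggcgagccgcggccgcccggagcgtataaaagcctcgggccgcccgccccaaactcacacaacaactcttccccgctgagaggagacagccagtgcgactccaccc
ANKRD1 promoter, chr10:90921038-90921337, - strand: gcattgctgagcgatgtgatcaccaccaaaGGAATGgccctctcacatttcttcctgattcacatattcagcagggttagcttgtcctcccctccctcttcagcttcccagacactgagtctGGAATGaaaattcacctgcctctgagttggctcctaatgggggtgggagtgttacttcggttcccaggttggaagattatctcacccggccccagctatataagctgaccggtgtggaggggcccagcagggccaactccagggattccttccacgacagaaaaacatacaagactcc
CCN2 held 3 and ANKRD1 held 2 matches. Of the 26 genes, 20 had a promoter and 10 of these (50.0%) held the motif, as did 8 of 13 among the higher members (61.5%). Among all 27305 genes with a promoter, 4567 (16.7%) held it. The list is of known TEAD targets, so an excess of the motif may follow from that choice and is not support.

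Cell-cycle genes were a trait in which TGFβ moved the spheres towards the TNBC line without reaching it. All 30 G2/M genes were higher in MDA-MB-231 (median log2FC 3.44), as were 28 of 30 S phase and replication genes (median 2.03), while PCNA (0.86 ± 0.32) and SLBP (0.97 ± 0.21) were not resolved. Without WT replicate 2 both were called higher (1.14 and 1.10), and SLBP also without WT replicate 1. TGFβ raised 25 of 29 G2/M genes (86.2%) and 24 of 30 S phase genes (80%) in the spheres, against 3.12% of all genes. It lowered none of either. CENPF, a kinetochore protein, was at 1027, 954 and 997 CPM in WT, 43, 46 and 39.5 after TGFβ and 14.5, 15.9 and 13.7 before it. The 3 groups did not overlap (TGFβ 1.51 ± 0.08, line 4.48 ± 0.18, adjusted p 4.94e-06). The replication helicase loader MCM10 rose from 0.983, 0.728 and 1.43 to 11.1, 11.6 and 11.2 CPM and stood at 82.5, 91.8 and 89.6 in WT (2.90 ± 0.16). The proliferation marker MKI67 was at 674, 1671 and 404 CPM in WT and 28.7, 32.8 and 31.6 in treated spheres (4.83 ± 0.56, 4.06 without WT replicate 2). TOP2A (3.63 ± 0.23), FOXM1 (4.59 ± 0.41), CDK1 (1.99 ± 0.47), BRCA1 (1.56 ± 0.16) and BRCA2 (2.34 ± 0.23) were higher. HMMR had the smallest G2/M difference (1.01 ± 0.29) and kept its call in none of the fits that left out 1 library other than WT replicate 2. In bulk RNA, a larger share of cycling cells and more of these transcripts per cycling cell cannot be told apart. Of 11 genes of the CDK4/6 axis tested of 13, 7 were higher and 1 lower. CDK4 was at 62.7, 58.1 and 78.9 against 31.9, 32.7 and 30.9 CPM (1.01 ± 0.18, and 0.87 without WT replicate 3, 0.98 without MII TGFβ replicate 1, 0.99 without MII TGFβ replicate 2 and 0.97 without MII TGFβ replicate 3, where it was not called). The partner kinase CDK6 was not resolved (95% interval -1.09 to -0.10) and RB1 was within 2-fold (0.07 ± 0.25). Cyclin D2 (CCND2) had no MII count (at least 42.9-fold higher). The CDK inhibitors CDKN1C (1.79 ± 0.22), CDKN2C (3.65 ± 0.22) and CDKN2D (2.64 ± 0.23) were among the higher ones. The inhibitor p21 (CDKN1A) was the lower gene, at 49, 75.6 and 65 against 635, 596 and 624 CPM (-3.35 ± 0.21). The INK4 inhibitors CDKN2A and CDKN2B had no count in any of the 9 libraries.

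Many hypoxia and glycolysis genes were alike in both lines. Of 26 genes, 10 were within 2-fold (38.5%, against 19.4% of all genes), 6 were higher, 3 lower and 7 not resolved, and without WT replicate 2 these counts were 13 (50.0%, against 36.9% of all genes), 5, 5 and 3. The glycolytic enzyme PGK1 rose in the spheres from 443, 430.1 and 428 to 884, 877 and 887 CPM and met the TNBC line at 905, 645 and 1105 (-0.05 ± 0.22). PGAM1 rose from 92.4, 95.5 and 94.7 to 226, 225 and 229 CPM against 249, 149 and 319 in WT (0.02 ± 0.28). The carbonic anhydrase CA9 rose from 0.131, 0.232 and 0.22 to 1.85, 1.82 and 1.6 CPM against 1.6, 2.79 and 2.15 (0.25 ± 0.30). All 3 had been raised by TGFβ and ended within 2-fold of MDA-MB-231. The angiogenic factor VEGFA was within 2-fold in both comparisons (line 0.18 ± 0.18, TGFβ -0.08 ± 0.04). NDRG1 (2.99 ± 0.19), BNIP3 (2.40 ± 0.28) and ENO2 (3.07 ± 0.22) were higher in MDA-MB-231, and the glucose transporter SLC2A3 had 2 counts in treated spheres against 31.3, 18.9 and 33.8 CPM in WT (642-fold (95% counting interval 178 to 5310) higher).

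The receptors whose low level defines a triple-negative tumour, ESR1, PGR and ERBB2, were lower in MDA-MB-231 than in the treated spheres. Of the 9 genes on the list of receptors and basal markers, 8 were lower in MDA-MB-231, with these 3 and the basal genes FOXC1, KRT5, KRT14 and TP63 among them, and EGFR was higher. The hormone receptors ESR1 and PGR were low in both, at 0.342, 0.339 and 0.284 and 0.114, 0.0423 and 0.0405 CPM in WT against 2.44, 2.34 and 2.26 and 0.991, 1.63 and 1.33 in treated spheres (-2.90 ± 0.29 and -4.24 ± 0.49). PGR had been raised by TGFβ from 0.0655, 0.0331 and 0.0549. ERBB2 was at 71.7, 163 and 75.7 against 324, 319 and 341 CPM (-1.72 ± 0.34). The basal-type factor FOXC1 was at 15.8, 17.7 and 15.6 against 121.5, 123 and 126 CPM (-2.97 ± 0.16). KRT14 was at 0.038, 0.212 and 0.162 against 19.3, 25.5 and 26.6 CPM (-7.46 ± 0.44).

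Of the 21 genes on a list drawn from the study's own text, 11 were higher, 6 lower, 1 within 2-fold and 3 not resolved. The study discusses them beside these samples, and chose some on them, so they are not independent evidence of direction. TMEM45A, a membrane protein, was at 7.52, 2.07 and 9.28 CPM in WT, 188, 200.1 and 182 after TGFβ and 61.7, 55.4 and 53.4 before it (-4.97 ± 0.54). IL6 was at 10.1, 6.06 and 8.27 CPM in WT and 0, 0 and 0.399 in treated spheres (5.82 ± 0.83, 5.23 without MII TGFβ replicate 1, 5.22 without MII TGFβ replicate 2 and 10.40 without MII TGFβ replicate 3). IL1A was lower (-1.60 ± 0.30), ALDH1A1 had 1 count in WT (193-fold (95% counting interval 34 to 7700) lower), and VEPH1 was not resolved (0.48 ± 0.35).

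Across all genes, beside CDH11, CENPF, TIMP3 and NRP1, the higher genes with the smallest adjusted p were the metallothionein MT2A (165, 191 and 188 against 3.63, 3.58 and 4.52 CPM, 5.47 ± 0.21), the membrane skeleton protein EPB41L2 (5.64 ± 0.23), MORC4 (4.81 ± 0.20), the repressor E2F7 (4.28 ± 0.18), the chromatin remodeller SMARCA1 (5.33 ± 0.22) and NAV3 (5.42 ± 0.23). The lower genes with the smallest adjusted p included maspin and MGP together with CD109, a TGFβ co-receptor of basal cells, at 0.076, 0.0847 and 0.0811 CPM in WT and 101.6, 103.2 and 100.8 in the spheres (-10.26 ± 0.24). The prostaglandin-degrading enzyme HPGD was at 0.722, 0.635 and 0.932 against 1224, 1198 and 1206 CPM (-10.68 ± 0.27) and the surface antigen PSCA at 0.19, 0.0847 and 0.203 against 1245, 1210 and 1305 (-12.93 ± 0.34). PIGR, the receptor that carries immunoglobulin A across glands (-9.94 ± 0.24), TC2N (-10.28 ± 0.26), FAM83F (-10.18 ± 0.26) and the kinase ROS1 (-9.15 ± 0.25) were lower too, and KRT23 had 3 counts in WT (1930-fold (95% counting interval 659 to 9340) lower). Of the 10 higher genes with the largest fitted difference, all had no count in the treated spheres. EEF1A2, an elongation factor variant, was at 22.4, 48.6 and 22 CPM in WT (at least 464-fold higher) and the receptor CD40 at 22.5, 24.5 and 25.6 (at least 366-fold), while GGT5, ATP8B2, ZNF486, IGFBPL1, ATP10A, APBA2 and FOXA2 stood at least 329-fold, at least 280.0-fold, at least 275-fold, at least 274-fold, at least 263-fold, at least 227-fold and at least 224-fold higher. At the other end stood the adhesion glycoproteins CEACAM6 (at least 18800-fold lower) and CEACAM5 (at least 8470-fold), the GABA receptor chain GABRP (at least 18500-fold), the protease inhibitor SLPI with 1 count in WT (113000-fold (95% counting interval 20300 to 4460000)), CDH19 (at least 9390-fold) and SERPINB3 (at least 7270-fold), beside KRT6B, KLK5, KLK6 and MGP. Near-identical copies share reads in the KRT6, CEACAM, SERPINB3 and metallothionein families, and reads that matched several places were not counted, so the split between members of these families is uncertain.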

How the data were processed

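RNA was sequenced from 3 libraries each of monolayer MDA-MB-231 WT cells, TGFβ-treated MII-spheres and control MII-spheres. Ribosomal RNA had been depleted in a stranded kit, and paired-end reads were trimmed with Trimmomatic and aligned to GRCh38 with STAR. The deposited values are raw counts, which the authors made with featureCounts (Subread 2.0.0 per the file headers) over GENCODE 38 exons, with both ends mapped, mapping quality of at least 30, multi-mapped reads left out and strand ignored. Without strand, reads of overlapping genes cannot be separated, and 5 of the 654 list genes found (CD68, CDSN, CYP51A1, NUSAP1 and TGM3) shared at least 80% of their exonic bases with another gene. Symbols came from GENCODE 44, which matched 60463 of 60708 gene identifiers.

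Groups followed the labels. Counts were tested with edgeR 4.0.16 in R 4.3.3 (filterByExpr, TMM factors, quasi-likelihood F test) on the libraries of each comparison alone, and the 95% intervals used the residual degrees of freedom of that fit. CPM used TMM-scaled totals over 21 RNA-seq libraries. Scripts were tested on simulated data with known changes. Alternatives used DESeq2 1.42.0, limma 3.58.1, other scaling factors and filters, the replicate number as a block, single libraries left out, all 18 libraries of the batch together and control siRNA MDA-MB-231 libraries. Leaving out WT replicate 2 together with MII TGFβ replicate 3 was added after seeing the data. Same-numbered libraries were not paired, since the correlations of their deviations from the group means were 0.01, -0.07 and -0.04. With 3 against 3 libraries an exact permutation test cannot give a p below 0.1, so none was used.

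The libraries compared and the 34 gene lists (656 genes, of which 2 were not in the tables) were chosen with earlier results of these data known. Genes were named by a rule: in each list up to 6 of the called genes with the widest log2FC in each direction and up to 6 of those within 2-fold with the highest CPM; over all protein-coding genes the 10 with the smallest adjusted p and the 10 with the widest log2FC in each direction; and HRAS, ESR1, PGR, ERBB2 and the genes the study names. Of 339 genes named, 65 list members fell outside the rule and were chosen after their values were seen. A ratio with a 95% interval is of summed counts scaled by total, with 1 to 3 counts in the lower group. Some list genes are not reported here, and the ATAC-seq libraries were not used here.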

Additional observations from a re-analysis of the deposited data

How the results depend on the processing

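Of 328 genes named and tested, 283 kept their call under every alternative in which they were tested, 45 changed it under at least 1 and 8 of these turned direction. All 8 turned when control siRNA libraries of MDA-MB-231, from another sequencing batch and transfected, took the place of WT: the log2FC became 4.52 for ALDH1A1, -0.37 for DST, -0.68 for GADD45B, -1.15 for MMP1, 0.83 for SNAI1, 0.65 for SPP1, 1.05 for TGFBR2 and 0.41 for TP63, and the cause was not tested. Requiring 10 counts in every library, which tests fewer genes and drops those absent from 1 line, gave 4575 changed genes against MII TGFβ (2438 higher, 2137 lower) in place of 7884, 5008 against MII Ctrl (2618 higher, 2390 lower) in place of 8918, and 947 for TGFβ in MII-spheres, 565 of them lower, in place of 1741. The count within 2-fold, 3419, was the least settled. It was 6289 with voom quality weights, 6066 without WT replicate 2 and MII TGFβ replicate 3, 5363 with all 18 libraries of the batch and 6233 with the control siRNA libraries, and it ran from 1988 to 6489 when 1 library was left out, the highest being without WT replicate 2. The count of changed genes ran from 7408 to 8274 with 1 library left out, and was 9476 with DESeq2 and 7702 with a replicate block. The block gave 1736 genes for TGFβ in MII-spheres. Library totals alone raised the share of higher genes among those changed from 53.67% to 60.15%. At 14124688 to 27759376 counts per library a gene with 3 or fewer counts in a group gives a bound or a wide ratio only, and the 95% interval within which genes could be called alike was wide wherever WT replicate 2 stood apart.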

Other observations

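Products of the squamous and mucosal lining were nearly absent from MDA-MB-231 WT. Of 20 cornification and mucosal defence genes tested of 27, 17 were lower and 3 higher than in TGFβ-treated MII-spheres (2 lower under a minimum of 10 counts in each library, a filter that drops genes near nil in WT), with a median log2FC of -8.97, or -7.36 with genes at 0 set to their floor. Lipocalin-2 (LCN2), an iron-binding defence protein, was at 1.06, 0.635 and 0.77 CPM in WT, 1286, 1298 and 1301 after TGFβ and 1284, 1305 and 1313 before it (-10.66 ± 0.30). S100A9 had no WT count (at least 2750-fold lower), involucrin (IVL) had 1 count (1310-fold (95% counting interval 234 to 51600) lower) and the airway protein BPIFB1 had 2 (10300-fold (95% counting interval 2860 to 85300) lower). The acute-phase genes SAA1 (3.84 ± 0.33) and SAA2 (2.31 ± 0.36) and the transglutaminase TGM1 (1.31 ± 0.40, 1.05 without MII TGFβ replicate 1, 1.49 without MII TGFβ replicate 2 and 1.34 without MII TGFβ replicate 3, where it was not called) were the higher ones. SAA1 and SAA2 are near copies and reads may be split between them.

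Interferon-stimulated genes were higher in MDA-MB-231 more often than lower. Of 26 genes, 14 were higher (53.8%, against 24.1% of all genes), 2 lower, 5 within 2-fold and 5 not resolved, and without WT replicate 2 the counts were 16 higher and 2 lower. Under a minimum of 10 counts in each library, 10 were higher and the median log2FC was 0.92 in place of 1.9. IFIT1, an antiviral RNA-binding protein, was at 109.6, 57.5 and 139 CPM in WT and 0.528, 1.56 and 2.06 in treated spheres (6.14 ± 0.57). BST2 (4.34 ± 0.25), IFIT3 (4.11 ± 0.30), OAS2 (4.40 ± 0.31) and ISG15 (3.29 ± 0.34) were higher, and XAF1 had no MII count (at least 84.6-fold higher). OAS1 went the other way, at 2.62, 1.31 and 2.19 against 230.4, 225 and 242 CPM (-6.88 ± 0.31), as did ISG20 (-2.08 ± 0.19). The pathway's own factors STAT2 (-0.23 ± 0.15) and IRF1 (-0.34 ± 0.16) were within 2-fold.

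Of 16 cytokine and chemokine genes tested of 27, 7 were higher (43.8%, against 24.1% of all genes) and 4 lower (25%, against 20.8%). Of the rest, 1 was within 2-fold and 4 were not resolved. Under a minimum of 10 counts in each library, 3 were higher and the median log2FC was -0.53 in place of 0.13. The macrophage growth factor CSF1 was at 162, 416 and 169 CPM in WT and 4.43, 4.3 and 5.72 in treated spheres (5.63 ± 0.47, 5.04 without WT replicate 2), and CSF2 at 5.74, 4.53 and 3.97 against 0.264, 0.0651 and 0.332 (4.34 ± 0.47). IL18 (-3.71 ± 0.21) and CXCL16 (-2.83 ± 0.34) were lower, and LIF was within 2-fold (-0.11 ± 0.24). Of 24 cholesterol synthesis genes, 7 were higher (29.2%, against 24.1% of all genes) and 4 lower (16.7%, against 20.8%). Another 5 were within 2-fold (20.8%, against 19.4%) and 8 not resolved. Without WT replicate 2 the count within 2-fold was 12 (50%, against 36.9% of all genes). With control siRNA MDA-MB-231 libraries in place of WT, 18 were higher and 0 lower and the median log2FC was 1.51 in place of 0.46. The sterol carrier STARD4 (3.86 ± 0.50) and the regulator INSIG1 (2.20 ± 0.31) were higher, while the enzyme FDFT1 (-1.60 ± 0.16) was lower and SQLE was within 2-fold (0.03 ± 0.25).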
